A study of Mus musculus with 9 samples.

Results

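The genes described here are those of transforming growth factor beta (TGF-beta) itself: the ligands Tgfb1, Tgfb2 and Tgfb3, the receptors Tgfbr1, Tgfbr2 and Tgfbr3, and the latent TGF-beta binding proteins Ltbp1, Ltbp2, Ltbp3 and Ltbp4. They were chosen by name, as the probe sets that the platform's annotation pairs with 1 of these symbols and no other. All 10 were found, each with 1 probe set, among 19938 genes tested. RNA had been taken from CXCL12-abundant reticular (CAR) cells, the marrow stromal cells that make the chemokine Cxcl12, sorted as lineage-negative cells bright for green fluorescent protein. Every mouse carried 1 Cxcl12 allele replaced by that protein's gene (Cxcl12+/gfp), so both groups lack 1 working Cxcl12 copy. The control mice had phosphate-buffered saline (PBS) for 5 days and gave 4 arrays. The treated mice had granulocyte colony-stimulating factor (G-CSF) for 5 days and gave 5 arrays. G-CSF is the cytokine that drives neutrophil production and mobilises stem cells, and the dose was 250 µg/kg per day. Age, sex and the number of mice behind an array were not given in the labels. The labels' source names speak of pre-B cell colonies and, for G-CSF replicates 2 to 5, of an Hspa9 genotype, which the titles and treatments contradict, and the groups here follow the titles.

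TGF-beta is made as a latent complex in which the mature ligand stays wrapped in its own propeptide. Latent TGF-beta binding proteins tie that complex to the extracellular matrix, and integrins and proteases set the ligand free. Free ligand binds the type II receptor (Tgfbr2), which recruits and phosphorylates the type I receptor (Tgfbr1), and Smad2 and Smad3 then carry the signal to the nucleus with Smad4. In bone marrow TGF-beta is known as a signal that holds blood stem cells at rest, and bone matrix is a large store of it.

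Levels are log2 RMA intensities, the array signal after background correction and normalisation between arrays, given as mean ± SD over arrays. A change is the G-CSF mean minus the PBS mean (log2), and comes with its standard error (SE) and 95% interval from limma. Levels of different probe sets are not set against each other, since probe sets differ in brightness. Fewer cells of a type and less RNA per cell cannot be told apart in these bulk samples. The arrays were split into 2 sets by their sign on the first principal component of all tested probe sets (34.9% of the variance). Such a split always gives 2 sets. In set 1 were replicates 1 and 2 of PBS and 1 to 3 of G-CSF, and in set 2 replicates 3 and 4 of PBS and 4 and 5 of G-CSF. The labels name no batch, and PBS replicate 3 lay farthest out. Stromal markers were bright in the sorted cells, with Cxcl12 at 12.35 ± 0.11 and Lepr at 11.55 ± 0.21 in PBS, and 8 of the 15 on that list fell after G-CSF. Of 16 neutrophil markers, 2 rose, and their summed linear signal ran from 8176 to 20339 in PBS and from 14267 to 22582 in G-CSF. Every neutrophil marker had a positive change, with a median of 1.06. Some were bright, with S100a8 at 11.66 ± 0.72 in PBS and 12.51 ± 0.31 in G-CSF. The lowest single neutrophil marker value was 31.1 on the linear scale, below every array median (34.7 to 37.2). No detection call says whether that marker was present. Of the other marker lists, 3 of 11 B lineage genes and 1 of 7 erythroid genes fell, 1 of 12 monocyte and macrophage genes rose, and 0 of 12 endothelial and 0 of 10 T and NK cell genes passed. Ebf1 is on both the stromal and the B lineage list and was counted among the falls of each. Over all probe sets tested, 1.62% passed an adjusted p under 0.05 in limma.

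No TGF-beta ligand, receptor or latent binding protein gene passed the test after G-CSF. In limma, 0 of the 10 had a Benjamini-Hochberg adjusted p under 0.05, where 1.62% of all 21789 probe sets did (0.743% higher and 0.877% lower in G-CSF). At an unadjusted p under 0.05, 3 of the 10 were counted (Tgfb3, Tgfbr3 and Ltbp2), where 9.22% of all probe sets were. The groups did not overlap for 2 of the 10 (Tgfbr3 and Ltbp2, both lower in G-CSF), where they did not overlap for 4.65% of all probe sets. The smallest adjusted p among the members was 0.183 (Tgfbr3). Of the 10 changes, 5 lay above 0 and 5 below, and their median was -0.0049, against 0.0061 over all probe sets tested. The arrays measured these changes to within 0.27 to 0.56 on either side (95% intervals). For 9 of the 10 genes the interval lay wholly inside a 2-fold change in either direction, and Tgfb3 was the exception.

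**Figure D1:**
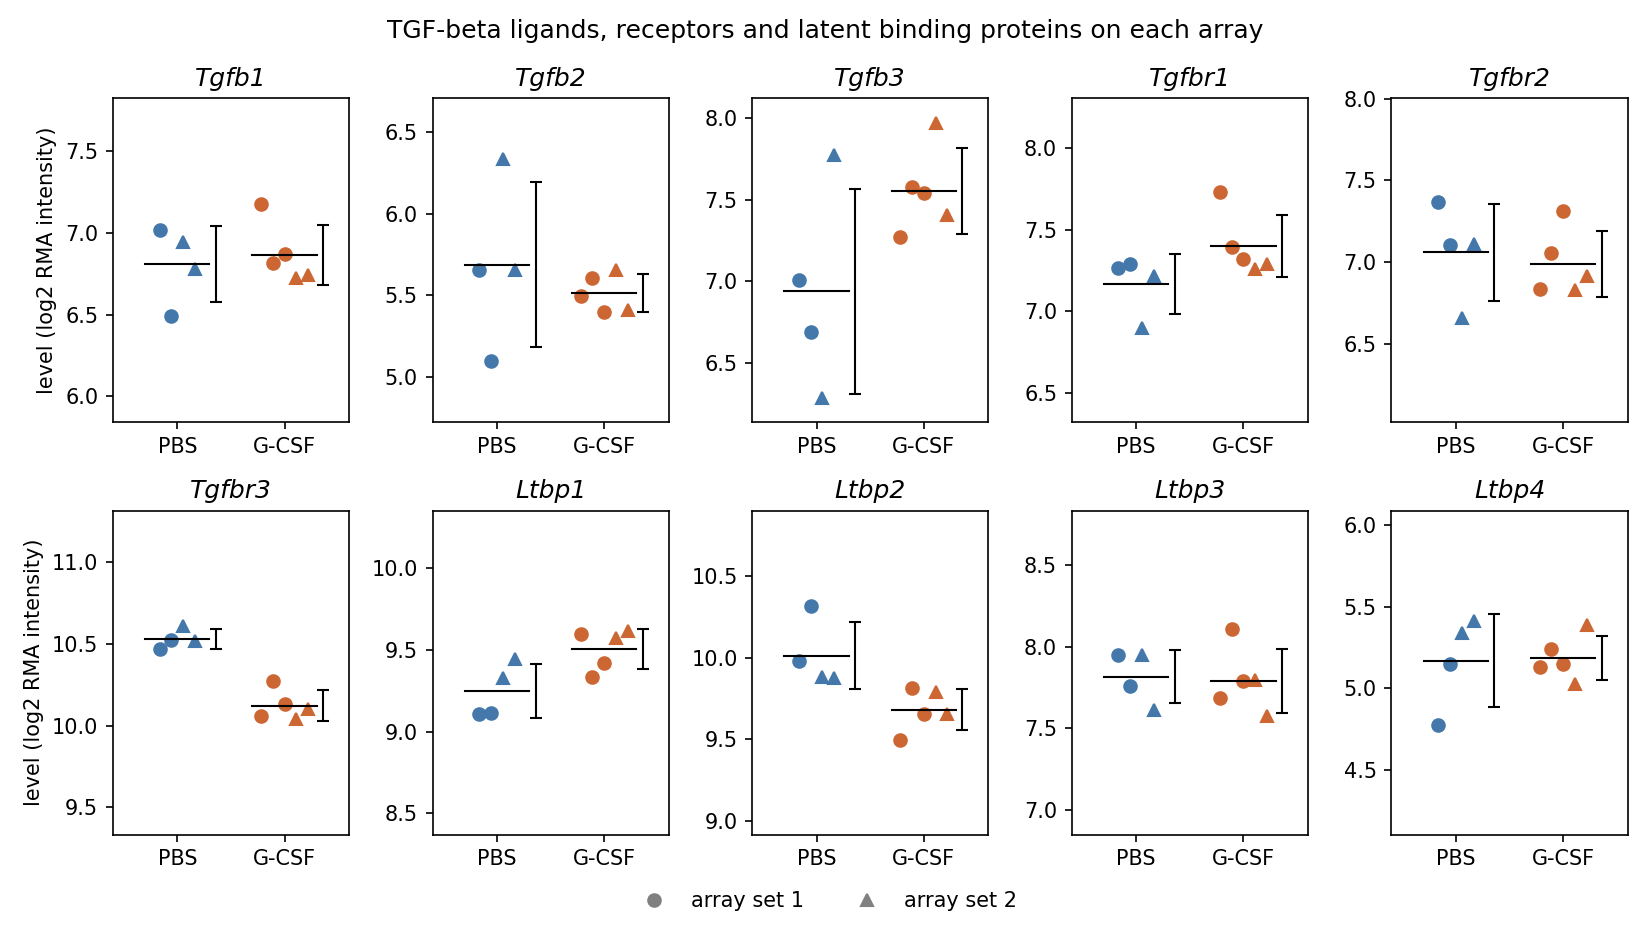
Level of each of the 10 genes on each array (log2 RMA intensity); every panel spans the same number of log2 units, circles are array set 1 and triangles array set 2, horizontal lines are group means and bars ± SD (4 PBS and 5 G-CSF arrays). For Tgfbr3 the G-CSF arrays lie between 10.04 and 10.28, all below the PBS arrays at 10.47 to 10.61, while for Tgfb1 the groups overlap almost fully.

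Of the ligands, Tgfb1, the isoform made by blood cells and stroma alike, had nearly the same mean level in both groups. It measured 7.02, 6.49, 6.94 and 6.78 on PBS replicates 1 to 4, in that order, and 7.17, 6.82, 6.87, 6.73 and 6.74 on G-CSF replicates 1 to 5. The groups overlapped, and PBS replicate 2 was the lowest of the 9 arrays. The mean was 6.81 ± 0.23 over the 4 PBS arrays and 6.87 ± 0.18 over the 5 G-CSF arrays, a change of 0.06 (SE 0.16, interval -0.28 to 0.40, adjusted p = 0.981 in limma). The interval corresponds to a G-CSF to PBS ratio between 0.821 and 1.32. Megakaryocytes and platelets are a rich source of TGF-beta 1. Of their 7 measured markers 0 passed, where 1.62% of all probe sets did. The markers' median change was -0.13, and their summed linear signals were 202 to 854 in PBS and 173 to 913 in G-CSF. Ppbp (-1.88, SE 1.08) and Pf4 (-1.15, SE 0.75) were lower in G-CSF with wide errors, and Itgb3 (0.26) and Gp9 (0.05) were higher. With errors of that size the missing calls say little about platelet RNA.

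Tgfb2, the isoform that depends most on Tgfbr3 to reach its receptors, was spread widely in PBS. It measured 5.66, 5.10, 6.33 and 5.66 on the PBS arrays and 5.50, 5.61, 5.40, 5.65 and 5.41 on the G-CSF arrays. PBS replicates 2 and 3 were the lowest and the highest of all 9 arrays, and every G-CSF array lay between them. The change was -0.17 (SE 0.21, interval -0.63 to 0.28, adjusted p = 0.938 in limma), and without PBS replicate 3 it was 0.04.

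Tgfb3, the isoform best known from palate fusion and scar-poor repair, had the largest difference of the 10, with the widest error. It measured 7.01, 6.69, 6.29 and 7.77 on the PBS arrays and 7.27, 7.58, 7.54, 7.97 and 7.40 on the G-CSF arrays. All 5 G-CSF arrays were above the PBS mean, but PBS replicate 4 lay above 4 of them, so the groups overlapped. The mean was 6.94 ± 0.63 in PBS and 7.55 ± 0.26 in G-CSF, a change of 0.61 (SE 0.26, interval 0.05 to 1.18, adjusted p = 0.467 in limma). With 1 array left out, the change ran from 0.40 without PBS replicate 3 to 0.89 without PBS replicate 4, and the adjusted p from 0.0807 (also without PBS replicate 4) to 0.719.

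Of the receptors, Tgfbr1, the type I kinase that phosphorylates Smad2 and Smad3, was slightly higher in G-CSF, and the groups overlapped. It measured 7.26, 7.29, 6.90 and 7.21 on the PBS arrays and 7.73, 7.39, 7.32, 7.26 and 7.29 on the G-CSF arrays. G-CSF replicate 1 stood above all the others and PBS replicate 3 below. The change was 0.23 (SE 0.15, interval -0.10 to 0.56, adjusted p = 0.784 in limma), and it was 0.14 without PBS replicate 3 and 0.15 without G-CSF replicate 1.

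Tgfbr2, the ligand-binding type II kinase, measured 7.37, 7.11, 6.66 and 7.11 on the PBS arrays and 6.83, 7.06, 7.31, 6.83 and 6.91 on the G-CSF arrays. The highest and the lowest of the 9 were both PBS arrays. The change was -0.07 (SE 0.17, interval -0.44 to 0.30, adjusted p = 0.981 in limma), so that a ratio of G-CSF to PBS between 0.735 and 1.23 was within the interval.

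Tgfbr3, or betaglycan, is a membrane proteoglycan that presents ligand to the kinase receptors and, once shed, can hold ligand away from them. It had the smallest p of the 10 genes. It measured 10.47, 10.52, 10.61 and 10.52 on the PBS arrays and 10.06, 10.28, 10.13, 10.04 and 10.10 on the G-CSF arrays. Each G-CSF array lay below each PBS array, and both groups were tight, with an SD of 0.06 in PBS and 0.09 in G-CSF. The change was -0.41 (SE 0.12, interval -0.68 to -0.14), a G-CSF to PBS ratio of 0.754, and it did not pass over all probe sets (adjusted p = 0.183 in limma). With 1 array left out, the change stayed between -0.45 and -0.38, and the adjusted p between 0.201 and 0.370. With the array set as a block the adjusted p was 0.102.

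**Figure D2:**
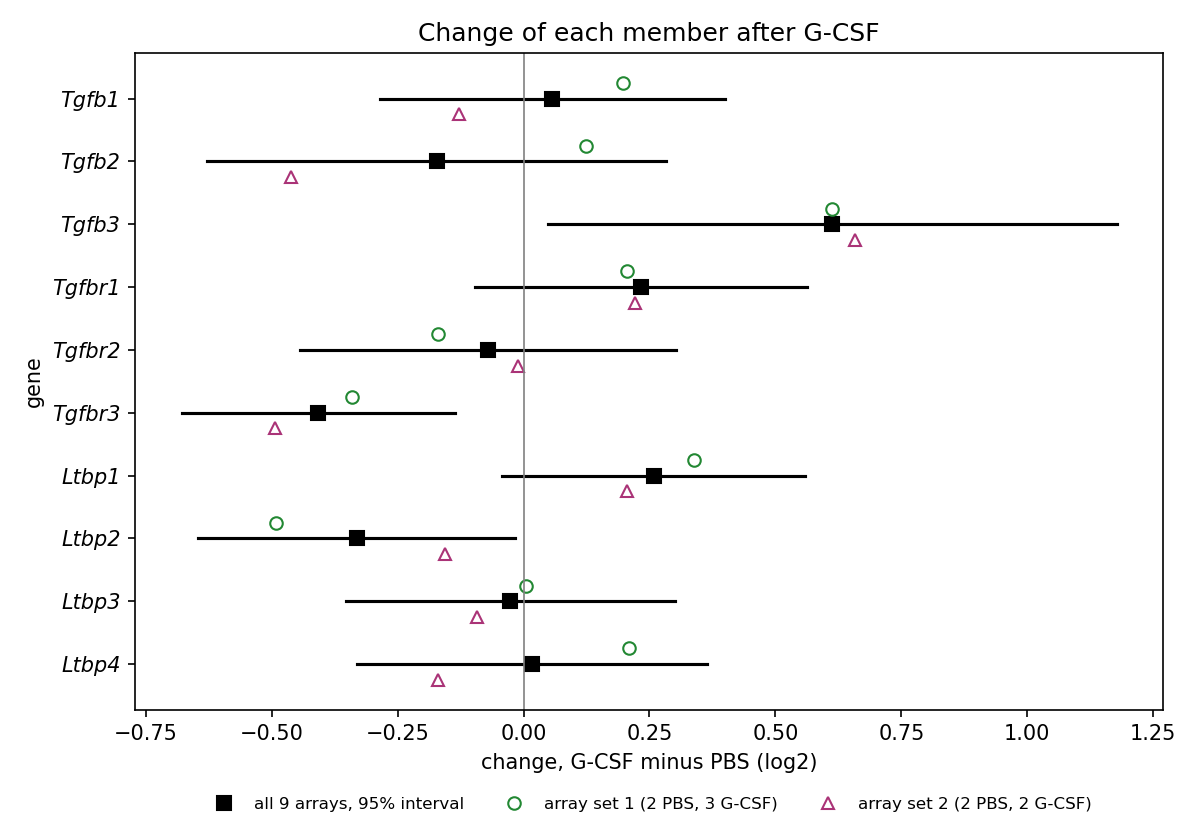
Change of each of the 10 genes, G-CSF minus PBS (log2). Squares with bars are the limma fit of all 9 arrays with its 95% interval, circles the change within array set 1 and triangles that within array set 2; 3 of the 10 intervals lie clear of 0 (Tgfb3, Tgfbr3 and Ltbp2), none of which passed after adjustment over all probe sets.

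Latent TGF-beta binding proteins are large matrix proteins related to the fibrillins, and Ltbp1 and Ltbp3 hold the latent complexes of all the TGF-beta isoforms. Ltbp1 measured 9.11, 9.11, 9.33 and 9.44 on the PBS arrays and 9.59, 9.34, 9.42, 9.57 and 9.61 on the G-CSF arrays. All 5 G-CSF arrays lay above the PBS mean, but PBS replicate 4 lay above G-CSF replicates 2 and 3. The mean was 9.25 ± 0.17 in PBS and 9.51 ± 0.12 in G-CSF, a change of 0.26 (SE 0.14, interval -0.04 to 0.56, adjusted p = 0.669 in limma).

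Ltbp2 shares the fibrillin-like build but does not bind latent TGF-beta, and it is known as a component of elastic fibres and microfibrils. It measured 9.98, 10.32, 9.88 and 9.87 on the PBS arrays and 9.50, 9.81, 9.65, 9.79 and 9.66 on the G-CSF arrays. The G-CSF arrays all lay below the PBS arrays, with PBS replicate 4 and G-CSF replicate 2 the closest. The change was -0.33 (SE 0.14, interval -0.65 to -0.02, adjusted p = 0.493 in limma). It was -0.38 to -0.23 with 1 array left out, smallest without PBS replicate 2.

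Ltbp3, which helps the secretion of latent TGF-beta in bone, measured 7.95, 7.76, 7.95 and 7.61 on the PBS arrays and 7.68, 8.11, 7.79, 7.80 and 7.58 on the G-CSF arrays. The highest and the lowest of the 9 arrays were both G-CSF arrays. The change was -0.03 (SE 0.15, interval -0.35 to 0.30, adjusted p = 0.993 in limma).

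Ltbp4, the family member with the narrowest ligand choice, binding latent Tgfb1, measured 4.78, 5.15, 5.34 and 5.42 on the PBS arrays and 5.13, 5.24, 5.15, 5.03 and 5.39 on the G-CSF arrays. These levels lie near the array medians of 5.12 to 5.22, and RMA values carry no detection call. The change was 0.02 (SE 0.16, interval -0.33 to 0.36, adjusted p = 0.996 in limma), and it was -0.02 after a further quantile normalisation.

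The estimated changes of Ltbp1 (0.26) and Ltbp2 (-0.33) had opposite signs, though neither gene passed the threshold. The promoters of this pair are printed to show what surrounds their start sites. The windows run from 250 bases before to 50 bases after a RefSeq start (build GRCm38.p6), 5′ to 3′ on the gene's strand, with matches to the short Smad-binding element CAGAC or its complement GTCTG in capitals. The Ltbp2 window, at chr12:84876442-84876741 on the minus strand, holds 3 matches, the Ltbp1 window at chr17:75005279-75005578 on the plus strand holds 1, and that of the other listed Ltbp1 start, at chr17:75178531-75178830 on the plus strand, holds 2.
Ltbp2: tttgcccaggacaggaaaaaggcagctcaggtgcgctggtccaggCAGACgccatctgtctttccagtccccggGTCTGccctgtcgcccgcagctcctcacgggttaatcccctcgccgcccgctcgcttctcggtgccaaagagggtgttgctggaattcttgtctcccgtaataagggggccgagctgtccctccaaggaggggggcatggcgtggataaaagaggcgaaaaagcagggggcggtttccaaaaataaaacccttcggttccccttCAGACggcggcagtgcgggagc
Ltbp1, upstream start: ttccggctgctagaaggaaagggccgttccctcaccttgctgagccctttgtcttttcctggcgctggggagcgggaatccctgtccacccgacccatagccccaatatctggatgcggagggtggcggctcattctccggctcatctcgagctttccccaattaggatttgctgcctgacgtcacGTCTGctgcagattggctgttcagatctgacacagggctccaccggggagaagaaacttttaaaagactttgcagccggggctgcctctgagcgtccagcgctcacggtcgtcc
Ltbp1, downstream start: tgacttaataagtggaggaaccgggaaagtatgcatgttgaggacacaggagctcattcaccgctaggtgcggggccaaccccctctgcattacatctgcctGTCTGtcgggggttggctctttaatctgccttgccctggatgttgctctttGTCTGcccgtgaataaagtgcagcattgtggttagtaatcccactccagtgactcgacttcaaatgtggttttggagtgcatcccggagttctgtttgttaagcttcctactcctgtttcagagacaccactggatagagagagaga
Of the 10 genes, 8 had a promoter entry, in 12 windows, and 7 of the 12 windows held a match, where 49.6% of all 32851 windows of the same length do. No member window held the STAT-type site TTCNNNGAA, which is found in 8.30% of all windows. A match is a description of letters in these windows and was not related to the changes.

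Whether members of one role changed by different amounts was compared in 12 pairs, by an exact permutation test of the within-array difference over every assignment of the 9 arrays to 4 and 5, where the smallest possible p is 0.00794. With 12 pairs, 1 pair at that smallest p adjusts to 0.0952, so a single pair could not pass on its own after Benjamini-Hochberg adjustment. None of the 12 passed, which this design comes close to fixing, and 3 had an unadjusted p under 0.05. The smallest p was that of Tgfbr1 against Tgfbr3. The Tgfbr1 change exceeded the Tgfbr3 change by 0.64 (interval of the permutation test 0.38 to 1.04, exact p = 0.00794, adjusted p = 0.0952, the lowest a lone pair can reach), and the within-array differences did not overlap between the groups. Ltbp1 exceeded Ltbp2 by 0.59 (interval 0.14 to 1.05, exact p = 0.0238, adjusted p = 0.143). Tgfb2 minus Tgfb3 was -0.78 (interval -1.84 to -0.03, exact p = 0.0476, adjusted p = 0.171), and it was -0.35 without PBS replicate 3. Tgfb1 minus Tgfb2 was 0.23 (interval -0.22 to 0.71), and 0.059 without PBS replicate 3. The Tgfbr1 minus Tgfbr3 difference ran from 0.52 to 0.69 with 1 array left out, and that of Ltbp1 minus Ltbp2 from 0.44 to 0.70. Among latent binding proteins, Ltbp3 minus Ltbp4 was -0.04 (interval -0.57 to 0.44).

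**Figure D3:**
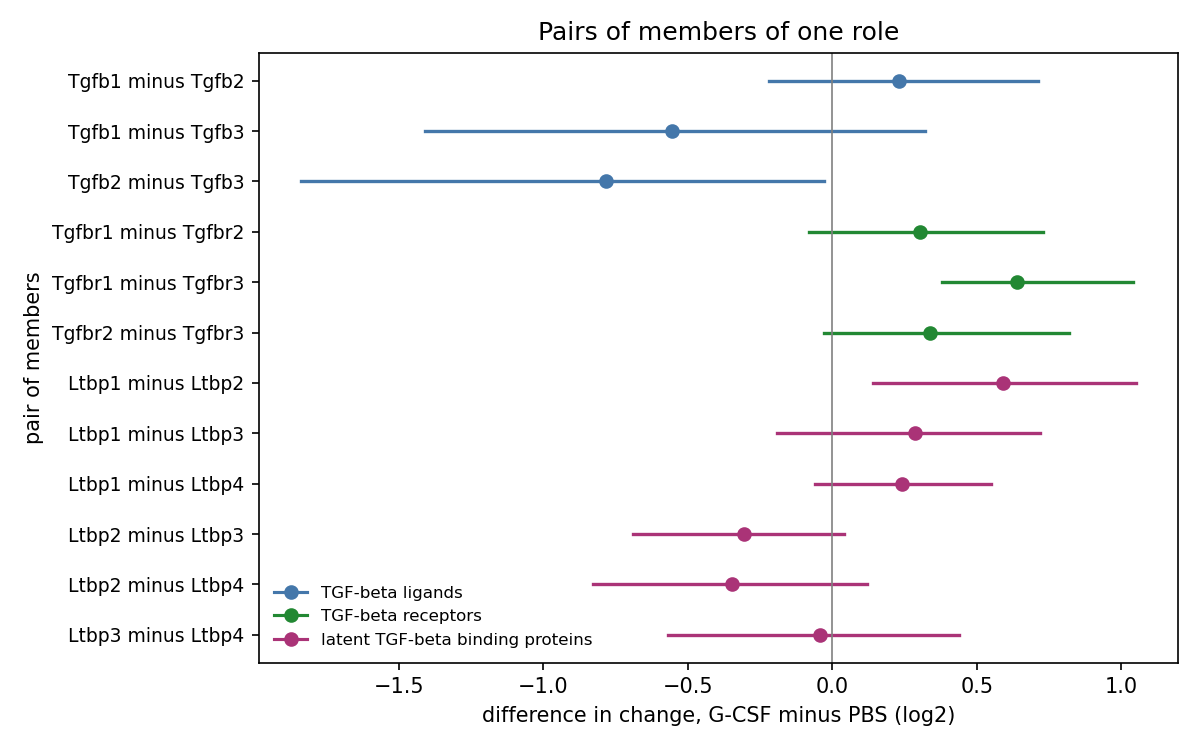
Difference between the changes of 2 members of one role (first minus second, log2), for all 12 pairs; points are the observed differences and bars the 95% intervals of the exact permutation test over 9 arrays. The intervals of Tgfb2 minus Tgfb3, Tgfbr1 minus Tgfbr3 and Ltbp1 minus Ltbp2 lie clear of 0 before adjustment over the pairs, and none of the 12 passed after it.

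Within the array sets, 6 of the 10 genes had a change of the same sign in both: Tgfb3, Tgfbr1, Tgfbr2, Tgfbr3, Ltbp1 and Ltbp2. Tgfbr3 was at -0.34 in set 1 and -0.49 in set 2, Tgfb3 at 0.61 and 0.66, and Tgfbr1 at 0.20 and 0.22. Ltbp1 was at 0.34 and 0.21, and Ltbp2 at -0.49 and -0.16. Tgfb1 (0.20 and -0.13), Tgfb2 (0.12 and -0.46), Ltbp3 (0.01 and -0.09) and Ltbp4 (0.21 and -0.17) differed in sign between the sets. None of the 10 passed within either set or with the set as a block. With the mean of the neutrophil markers as a covariate the changes of Tgfbr3, Tgfb3 and Ltbp2 were -0.37, 0.98 and -0.49, also not past the threshold.

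Transcripts were next examined for proteins that store, cleave or capture TGF-beta in the matrix. Of 22 measured genes for activation and latency partners, 5 rose, 1 fell and 16 did not pass, where 1.62% of all probe sets passed. The median change of the 22 was 0.29. These lists of related genes were drawn up with earlier results of these data known, so their counts are not independent evidence. Mmp2, a gelatinase able to release TGF-beta from its latent complex, measured 6.26, 6.54, 7.14 and 7.37 in PBS and 8.42, 8.16, 8.15, 8.72 and 8.54 in G-CSF. Every G-CSF array was above every PBS array, a rise of 2.96-fold (change 1.57, SE 0.23, adjusted p = 0.00378 in limma). Itgb5, the integrin chain that with alpha-v can activate latent TGF-beta, rose 2.27-fold, from 7.88 ± 0.19 to 9.06 ± 0.32 (adjusted p = 0.00548). Its partner Itgav, picked with its values in view, was at 0.23 (adjusted p = 0.806). Bmp1, a protease that cuts latent TGF-beta binding protein free of the matrix, rose 1.96-fold, from 8.21 ± 0.29 to 9.19 ± 0.19 (adjusted p = 0.0111).

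Of the 4 small proteoglycans on the list, 1 rose, 1 fell and 2 did not pass. Dcn (decorin) rose 1.97-fold, from 10.07 ± 0.33 to 11.04 ± 0.09 (adjusted p = 0.00923 in limma). Fmod (fibromodulin) measured 7.50, 6.73, 6.95 and 6.98 in PBS and 5.84, 5.54, 5.12, 5.39 and 5.15 in G-CSF, with no overlap, and fell 3.10-fold (change -1.63, SE 0.20, adjusted p = 0.00116). Bgn (biglycan) was at -0.04 (adjusted p = 0.981) and Aspn (asporin) at 0.68 (adjusted p = 0.408), both named with their values in view. Mmp9, a gelatinase abundant in neutrophil granules, rose 3.12-fold (from 6.28 ± 0.76 to 7.92 ± 0.44, adjusted p = 0.0257). The neutrophil marker list, which holds Mmp9 itself, had a mean of 8.05 ± 0.66 in PBS and 9.05 ± 0.29 in G-CSF. With that mean as a covariate in limma, Mmp9 was at 0.70 (adjusted p = 0.954) and Mmp2 at 1.62 (adjusted p = 0.171). Fmod was at -1.27 (adjusted p = 0.165), Itgb5 at 1.20, Bmp1 at 0.95 and Dcn at 0.88. None of them passed the threshold in that fit, in which the calls over all probe sets fell from 353 to 44. Because the neutrophil mean differed between the groups, the fit separates it poorly from the treatment. The part of neutrophil RNA in these changes was not tested. Leaving out PBS replicate 1 or 4, or any of G-CSF replicates 1 to 4, also ended the Mmp9 call, and the adjusted p then reached 0.0792 at most.

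Downstream of the receptors, the Smad genes and the accessory receptors held no call, though 1 gene of each list passed with the array set as a block. Of 19 measured Smads, Smad partners and ubiquitin ligases, 0 passed in limma, where 1.62% of all probe sets did. At an unadjusted p under 0.05, 3 were counted, where 9.22% of all probe sets were, and the median change was -0.02. With the block Tgif1, a corepressor of Smads, was at 0.85 (adjusted p = 0.0108, against 0.233 without it). Skil, a Smad corepressor that TGF-beta induces, was at 0.52 (SE 0.16, adjusted p = 0.181), with its G-CSF arrays all above its PBS arrays. Nedd4l, a ubiquitin ligase for activated Smads, was at -0.65 (adjusted p = 0.232). Smad2, Smad3 and Smad7, the inhibitory Smad that TGF-beta induces, were at 0.07, 0.53 and -0.04 (adjusted p of 0.981, 0.592 and 0.990; chosen after their values were seen). Of 11 co-receptors and accessory receptors, 0 passed and 3 had an unadjusted p under 0.05 (9.22% of all probe sets did), with a median of 0.14. Ldlrad4, which restrains Smad phosphorylation, was at 0.71 (adjusted p = 0.0540, and 0.0315 with the array set as a block), and Nrp1, a co-receptor shared with VEGF and semaphorins, was at -0.37 (adjusted p = 0.352).

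**Figure D4:**
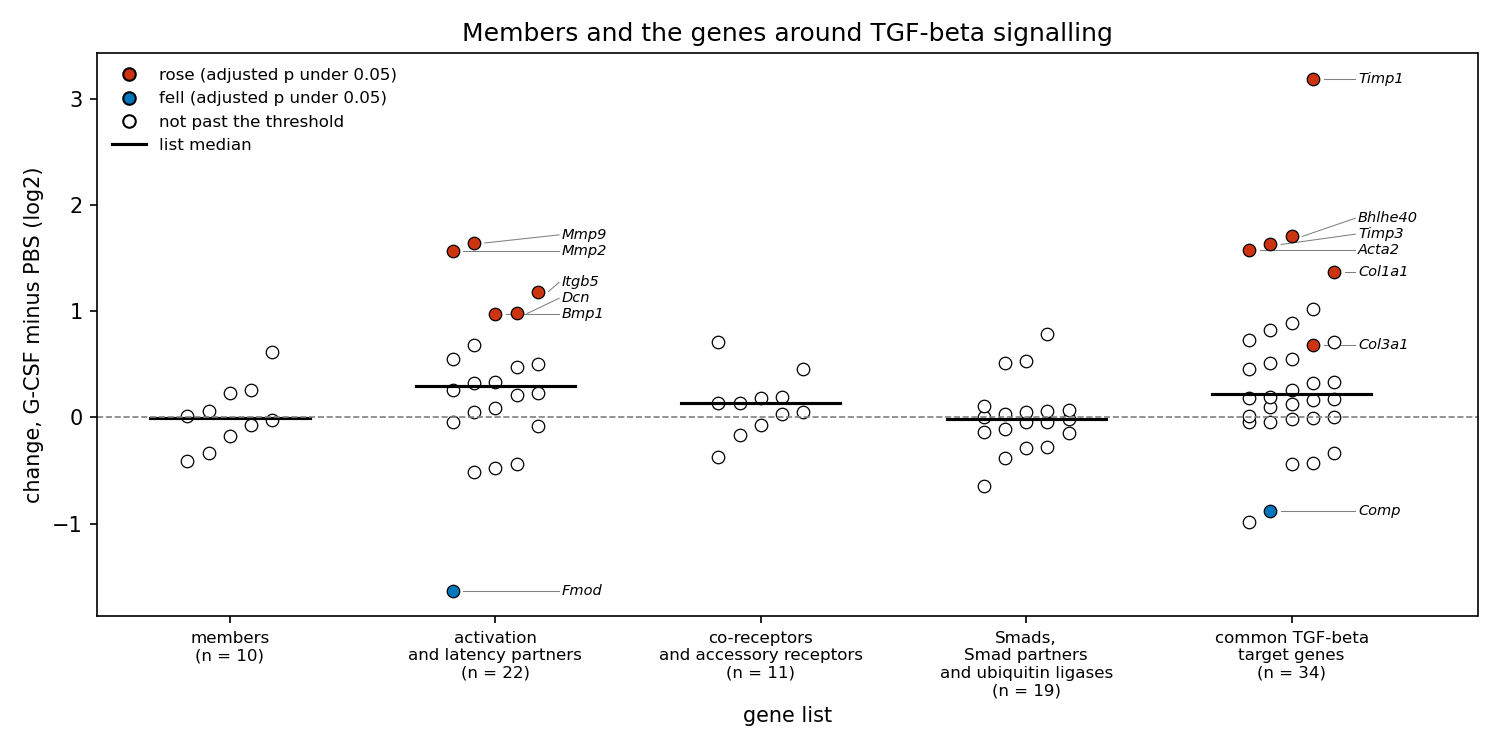
Change of each measured gene, G-CSF minus PBS (log2), for the 10 members and 4 lists of related genes; filled points passed an adjusted p under 0.05 in limma (red rose, blue fell), open points did not, and black lines are list medians. Calls lie in the activation and latency list (6 of 22) and the target list (7 of 34), with none among the 10 members, where 1.62% of all probe sets were called. At that share a list of 10 would mostly hold no call, and the lists were drawn up with earlier results of these data known.

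Among 34 measured genes that TGF-beta is commonly known to induce, 6 rose, 1 fell and 27 did not pass, with a median change of 0.22. Those that rose were the protease inhibitors Timp1 (3.19) and Timp3 (1.63), the collagen chains Col1a1 (1.36) and Col3a1 (0.68), the smooth muscle actin gene Acta2 (1.57) and the transcription factor gene Bhlhe40 (1.70). The gene that fell was Comp, a cartilage matrix protein (-0.88; chosen after its values were seen). Among the 27 that did not pass, Ccn2, also called CTGF, was at 0.19 (interval -0.35 to 0.74, adjusted p = 0.944) and Tgfbi at 0.33 (adjusted p = 0.755), both chosen after their values were seen. Many signals besides TGF-beta act on these genes, and the list holds Ltbp2, a member. Over all the lists with the members left out, 81 genes were measured and 13 were called (16.0%, against 1.62% of all probe sets). The lists were drawn up with earlier results of these data known, so that excess is not independent evidence. The 13 were all called again with the array set as a block, when 18 were. The sets were taken from these same values, and over all probe sets the block raised the calls from 353 to 598. The 5 added by the block were Ldlrad4, Tgif1, Tagln (0.97, adjusted p = 0.0190), Fn1 (0.78, adjusted p = 0.0155, against 0.144 without the block) and Igfbp3 (-0.99, adjusted p = 0.0356). The count was 8 in array set 1, 3 in array set 2, and 1 (Timp1) with the neutrophil mean as a covariate. Under that covariate the changes of the risen targets were 3.22 for Timp1, 1.52 for Timp3, 1.504 for Col1a1, 1.67 for Acta2, 1.86 for Bhlhe40 and 0.67 for Col3a1. The neutrophil mean itself differed between the groups (8.05 ± 0.66 in PBS and 9.05 ± 0.29 in G-CSF), so this fit separates it poorly from the treatment. The part of neutrophil RNA in these changes was not tested. Smooth muscle and pericyte markers, a list of 12 that shares Acta2, Tagln and Cnn1 with the targets, had 1 member risen, Acta2 itself. The list's median change was 0.33. Its summed linear signal, which weighs bright genes such as Myl9 most, was 1266 to 1704 in PBS and 2018 to 2719 in G-CSF. Myl9 was at 0.69 and Notch3 at 0.51, but Myh11 (0.16), Kcnj8 (0.16), Lmod1 (0.06) and Cnn1 (-0.02) moved little. The part of smooth muscle cells and pericytes in the rises of Acta2 and the collagens was not tested. Leaving out PBS replicate 1, 2 or 4, or G-CSF replicate 1 or 2, ended the Col3a1 call, and its adjusted p then reached 0.0670 at most.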

How the data were processed

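RNA from 9 sorted cell samples had been amplified and hybridised to Affymetrix Mouse Gene 1.0 ST arrays, per the labels' protocols. The authors deposited RMA intensity values from Affymetrix Expression Console, as the submitters' processing notes record (version not given in the sources used here). They ran from 1.73 to 15673 with array medians of 34.7 to 37.2, a linear scale, so log2 was taken first. RMA scales arrays to each other, so a change in total RNA per cell cannot be seen. The deposited values still differed in spread, with an interquartile range over the tested probe sets of 2.17 (PBS replicate 3) to 2.90 (PBS replicate 1) on the log2 scale. Precision is limited by how many arrays there are.

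Of 35553 probe sets, the 21789 with 1 gene symbol were tested with limma 3.58.1 (lmFit and eBayes, R 4.3.3) over the 9 arrays with no covariate, as a two-sided test at a Benjamini-Hochberg adjusted p under 0.05. For a gene with several probe sets the brightest was used. Nothing ties arrays to separate animals beyond the titles' word "biological", so a p-value reflects only how these arrays vary. The steps were tested on simulated data with independent noise on each probe set and array. Those data held no array sets, so that test does not cover them. Replicate numbers were not taken to pair arrays, as the titles name no pairs. Same-numbered arrays deviated together for replicates 1, 2 and 4 (r of 0.28, 0.14 and 0.35) but not for replicate 3 (-0.28). Replicates 1, 2 and 4 lie in the same array set in both groups and replicate 3 does not, so these r values do not test a pairing.

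The members and lists were chosen with earlier results of these data known. The naming rule took all members, up to 6 genes past the threshold per related list (otherwise the 2 with the smallest p), and genes patterned like a member that passed, of which there were none. Alternatives were other filters, normalisations, variance settings, weights, thresholds, the replicate block and each array left out; the array sets, G-CSF replicates 4 and 5 averaged (their r of 0.988 was the highest) and the neutrophil covariate were chosen after seeing the data.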

Additional observations from a re-analysis of the deposited data

Results flagged for a closer look

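Of 52 groups of arrays examined (20 of them for the 10 members and the rest for the related genes named), 3 held an array far from the others of its group; chance flags about 1 in 20. Tgfbr1 in G-CSF replicate 1 was at 7.73, with the nearest G-CSF array at 7.39, and without that array the Tgfbr1 change was 0.15 against 0.23. Itgb5 in G-CSF replicate 1 was at 8.49, with the nearest at 9.12. Col1a1 in PBS replicate 4 was at 6.95, with the nearest at 6.74.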

How the results depend on the processing

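Under all 24 alternatives, 0 of the 10 members passed. Of 239 member changes under these alternatives, 217 kept their direction and 22 did not, lying between -0.17 and 0.18 with none past the threshold, and Ltbp4 had no value among the brighter probe sets. The filters, variance settings, thresholds and averaging of a gene's probe sets cannot alter a member's change, so part of the 217 was fixed in advance. The replicate block gave the same member changes as leaving out G-CSF replicate 5. Tgfb1 was at -0.13 in array set 2 and from -0.048 to 0.13 with 1 array left out. Tgfb2 was at 0.019 with array weights, 0.12 in array set 1, 0.18 with the neutrophil covariate and from -0.37 to 0.043 with 1 array left out. Tgfbr2 was at 0.0069 with the neutrophil covariate and from -0.21 to 0.032 with 1 array left out. Ltbp3 was at 0.027 with the replicate block, 0.0053 in array set 1, 0.10 with the neutrophil covariate and from -0.11 to 0.027 with 1 array left out. Ltbp4 was at -0.022 after quantile normalisation, -0.033 with the replicate block, -0.17 in array set 2, -0.0083 with the neutrophil covariate and from -0.11 to 0.10 with 1 array left out. Over the 24 alternatives the adjusted p was 0.102 to 0.979 for Tgfbr3, 0.0807 to 0.734 for Tgfb3 and 0.269 to 0.864 for Ltbp2. The difference Ltbp3 minus Ltbp4 ran from -0.19 to 0.13 with 1 array left out. With 8 arrays the exact test could hardly bring a pair past the threshold after adjustment, so the pairs' p-values there say nothing about stability.

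Of the related genes, 13 were called, 10 with the replicate block, which lost Dcn (adjusted p = 0.0652), Bmp1 (0.0624) and Col3a1 (0.0978), and 10 to 14 with 1 array left out. The count was 8 in array set 1, 3 in array set 2 (both with fewer arrays) and 1 with the neutrophil covariate; the cause was not tested for the last. Over all probe sets, 353 calls became 181 with every probe set tested, 180 with the replicate block, 149 at adjusted p under 0.01, 210 without PBS replicate 1, 222 without G-CSF replicate 1, 224 without G-CSF replicate 4, 598 with the array set as a block, 202 and 59 in array sets 1 and 2, and 44 with the neutrophil covariate. Without a detection call, low signals such as that of Ltbp4 limit what could be seen.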
